A study of Homo sapiens with 4 samples.

Results

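Promoter regions that were accessible in both ATAC-seq libraries of HRAS G12V-transformed MCF10A cells and in neither library of parental MCF10A cells are described here. The peak lists of the 4 libraries were merged into 60886 regions, of which 11318 overlapped the promoter window of a gene, which reached from 1000 bp before the transcription start site (TSS) of a protein-coding or lncRNA gene to 500 bp after it. Of these promoter regions, 251 held a peak in both G12V lists and in neither MCF10A list, which is 2.22% of all promoter regions, and they are called gained. The gained regions were therefore chosen by the measured presence and absence of peaks, so their counts and peak scores are given as a description and were not tested. The word gained refers to the lists only: a list holds no record of accessibility below its peak threshold.

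MCF10A is a human cell line grown from breast epithelium that divides without limit in culture but does not form tumours. The parental group (genotype Parental, 2 replicates) is called MCF10A. The transformed group (genotype H-RAS Gv12, 2 replicates), called G12V, carried a constitutively active HRAS introduced by viral transduction followed by hygromycin selection, together with a GFP vector, so that it is a selected cell population. No treatment or time course was part of the comparison, and whether the parental cells carried an empty vector is not given in the sources used here. ATAC-seq uses a transposase that inserts sequencing adapters into open chromatin, so that pile-ups of reads mark accessible DNA.

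Most vertebrate promoters fall into a CpG-rich type, often broadly active and accessible in many tissues, and a CpG-poor type, more often used in particular cell types or states. Active RAS signals through the RAF, MEK and ERK kinases to transcription factors of the ETS and AP-1 families. AP-1 is a dimer of FOS and JUN proteins. Its motif was searched here as TGANTCA, which accepts any middle base and is wider than the usual site with C or G there.

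The sequence before the start site differed widely between the gained promoters with the highest peak scores. The 150 bp immediately upstream of the TSS are shown for 5 protein-coding genes from the top of the ranking to display this range, in hg19, 5′ to 3′ on the strand of the gene, with CpG dinucleotides in capitals.
ULBP2 (chr6:150263000-150263149, plus strand): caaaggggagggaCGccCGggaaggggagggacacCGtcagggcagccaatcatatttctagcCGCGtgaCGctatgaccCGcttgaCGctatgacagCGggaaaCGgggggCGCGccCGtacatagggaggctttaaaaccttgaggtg
NANOS1 (chr10:120789076-120789225, plus strand): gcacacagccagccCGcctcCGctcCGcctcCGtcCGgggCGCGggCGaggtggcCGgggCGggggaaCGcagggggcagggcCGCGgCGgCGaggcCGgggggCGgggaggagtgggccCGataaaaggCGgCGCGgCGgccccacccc
TLR4 (chr9:120466303-120466452, plus strand): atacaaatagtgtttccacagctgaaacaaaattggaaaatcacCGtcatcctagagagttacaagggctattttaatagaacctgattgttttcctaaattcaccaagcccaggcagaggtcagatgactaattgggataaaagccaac
SIKE1 (chr1:115323307-115323456, minus strand): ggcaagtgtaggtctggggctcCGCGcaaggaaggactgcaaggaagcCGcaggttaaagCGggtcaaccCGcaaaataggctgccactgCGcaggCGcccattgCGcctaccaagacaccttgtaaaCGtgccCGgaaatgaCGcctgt
TMEM231 (chr16:75590188-75590337, minus strand): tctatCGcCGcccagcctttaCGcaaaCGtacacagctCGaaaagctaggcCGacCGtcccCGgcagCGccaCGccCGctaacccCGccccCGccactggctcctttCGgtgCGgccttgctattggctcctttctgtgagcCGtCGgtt

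The NANOS1 stretch held 22 CpG dinucleotides at a GC content of 83.3%, the highest of the 5. The TLR4 stretch held 1 CpG at 38.7% GC, the lowest. ULBP2, SIKE1 and TMEM231 lay between them, with 13, 11 and 17 CpG dinucleotides.

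The libraries differed more between replicate numbers than between groups in the size of their peak lists. The lists held 12902 and 34484 peaks for MCF10A replicates 1 and 2 and 14057 and 46698 peaks for G12V replicates 1 and 2, and the read depth behind them is unknown. Each peak carried a MACS score, which is −10 times the log10 of its p-value, with a minimum of 40 in every list, and scores are also given as percentiles among all peaks of the same list. Of 12 markers of epithelial identity fixed for a label check, 4 had a promoter peak in any library, against 3 of 9 fibroblast, 2 of 8 blood cell and 1 of 6 endothelial markers. Over all protein-coding genes this held for 9980 of 20098. By library, MCF10A replicates 1 and 2 and then G12V replicates 1 and 2, the epithelial counts were 3, 3, 0 and 2. The fibroblast counts were 0, 3, 2 and 2, the blood cell counts 1, 1, 0 and 2, and the endothelial counts 0, 1, 0 and 0. All protein-coding genes gave 4273, 8352, 4643 and 8843. Promoter peaks at these markers were thus absent for most genes of every type, and they did not single out the labelled cell type.

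**Figure D1:**
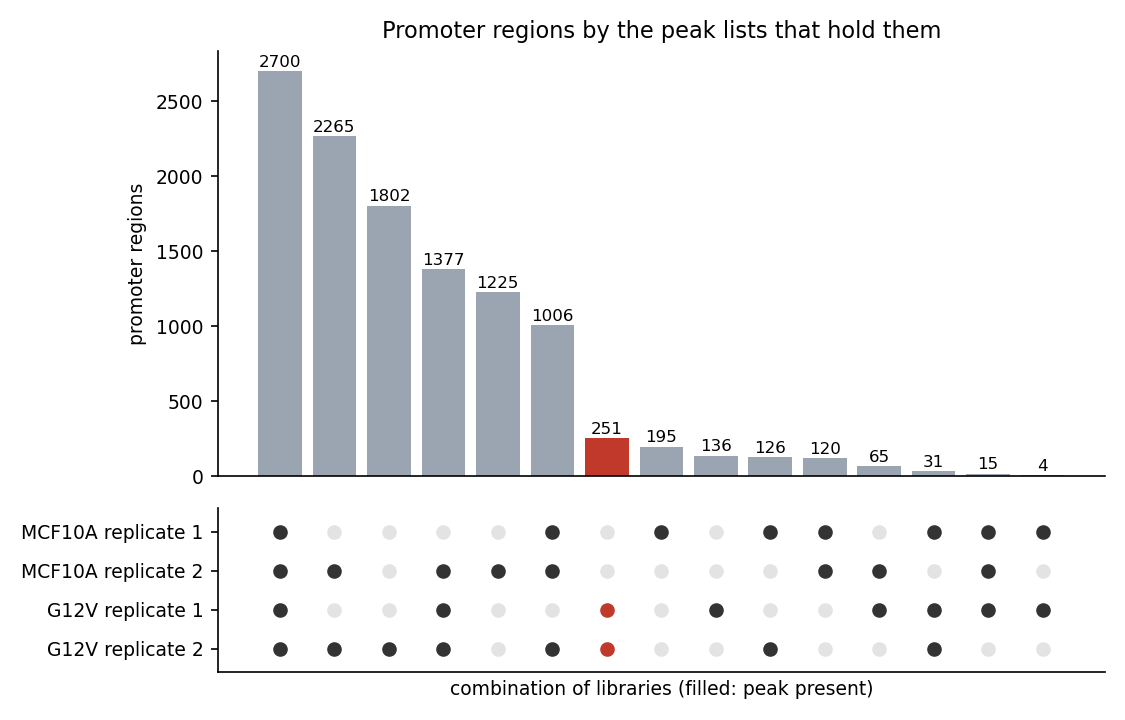
Number of promoter regions (vertical axis) for each combination of the 4 peak lists that holds them (filled circles below each bar), ordered by number. The 251 gained regions (red) stand beside 2700 regions in all 4 lists, 120 in the MCF10A lists alone and 1377 in every list except that of MCF10A replicate 1.

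Absence from MCF10A replicate 2, the larger MCF10A list, set most of the boundary of the gained group. Both G12V lists shared 4359 promoter regions, and 1408 of them were held by a single MCF10A list, which was replicate 2 for 1377 and replicate 1 for 31. With MCF10A replicate 2 left out the number of gained promoter regions was 1636, and with MCF10A replicate 1 left out it was 284. Using G12V replicate 2 alone gave 2061 regions and using G12V replicate 1 alone gave 439. With 2 libraries per group a permutation of the group labels could not give a two-sided p-value under 0.33. The lists hold no read counts, and no test of single regions was run.

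The regions just outside the rule had MCF10A peaks at the score minimum. The promoters of ANGPT1, which encodes a vascular growth factor, ENSG00000258355 and FBXO32, which encodes a ubiquitin ligase subunit, were in both G12V lists and missed the gained group through MCF10A replicate 2 scores of 40.15, 40.21 and 40.23. In all, 92 promoter regions of both G12V lists missed it through a single MCF10A peak scoring under 50, and 12 through one scoring under 42. Just inside the rule, SLC26A6, an anion exchanger gene, had scores of 48.61 and 40.07 in G12V replicates 1 and 2, and LINC01139 had 40.01 and 76.32. The lncRNA gene ENSG00000253445 was similar, at 40.02 and 92.46.

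Gained regions were weaker peaks than promoter regions present in all lists. This comparison is not independent of the rule, because shared regions passed the threshold in all 4 lists and gained regions in neither MCF10A list. Shared regions were also longer, with medians of 1330 and 700 bp, and scores of crossed and lost regions were not compared. In G12V replicate 1 their scores ran from 40.01 to 128.75 with a median of 58.24, percentile 38.9 of that list, whereas regions shared by all 4 lists had a median at percentile 78.2. In G12V replicate 2 the scores ran from 40.07 to 364.63 with a median of 77.47, percentile 53.8, against 94.3 for shared regions. Only 62 gained regions were above percentile 50 of both G12V lists and 10 above percentile 75, while 103 were below percentile 25 in at least 1 list. The ranks of the 251 regions in the G12V lists were weakly related, with Spearman's rho of 0.267 over regions that share both libraries.

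**Figure D2:**
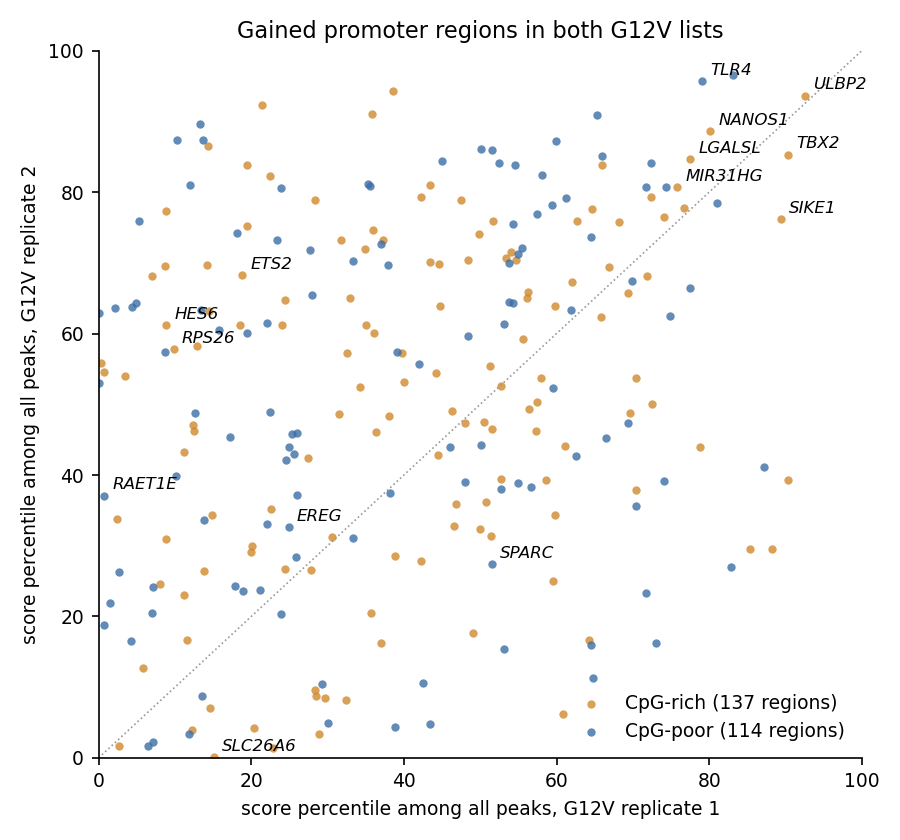
Score percentile of each gained promoter region among all peaks of G12V replicate 1 (horizontal) and G12V replicate 2 (vertical), coloured by CpG content, with selected genes named. ULBP2, TBX2, NANOS1 and TLR4 lie in the upper right corner, while RAET1E and SLC26A6 lie at the edge of a list.

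The region at ULBP2, which encodes a stress-induced surface ligand for the NKG2D receptor of natural killer and T cells, ranked highest by the lower of its G12V percentiles. It scored 128.75 and 281.63 in G12V replicates 1 and 2, and the nearest MCF10A peak lay 8768 bp away. The peak lay across the TSS, with its centre 5 bp upstream. TBX2, which encodes a T-box transcriptional repressor, had scores of 118.46 and 179.38. NANOS1, the gene for an RNA-binding translational repressor, had 92.05 and 209.15 at a region it shares with LINC03036, and TLR4, the receptor for bacterial lipopolysaccharide, had 90.13 and 334.48. All 4 regions were among the 5 highest, and all covered a TSS. The TBX2 region also served the lncRNA gene ENSG00000267131, and the TLR4 region the protein-coding gene ENSG00000285082.

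Further protein-coding genes among the 20 highest gained regions served varied functions. SIKE1, whose product inhibits innate immune kinases, scored 114.56 and 129.14, and LGALSL, a galectin-related gene, scored 87.92 and 174.66. The centriole gene POC1A had 83.04 and 130.24, and TMEM231, a gene of the ciliary transition zone, had 81.06 and 142.94. RNF168, a ubiquitin ligase of the DNA damage response, had 80.28 and 103.72, RCAN2, a regulator of calcineurin, had 76.89 and 127.79, TPST1, a tyrosylprotein sulfotransferase, had 75.68 and 106.75, and XKR6 had 83.62 and 149.71. For POC1A, RNF168, RCAN2 and TPST1 the nearest MCF10A peak was at least 45243 bp away, whereas at XKR6 it was 659 bp away. The regions at LGALSL, TMEM231, RCAN2 and XKR6 each also served an lncRNA gene.

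The remaining regions of the 20 highest lay at lncRNA genes. MIR31HG, the host transcript of miR-31, scored 85.5 and 149.67, with the nearest MCF10A peak 117513 bp away, and FRMD3-AS1 scored 86.64 and 135.99. ENSG00000230627 had 97.39 and 364.63, the highest score of any gained region in G12V replicate 2. LINC02863, ENSG00000287255, ENSG00000254057, ENSG00000261000 and ENSG00000285592 completed the group, with scores between 78.73 and 93.66 in G12V replicate 1 and between 99.63 and 171.05 in G12V replicate 2. CpG-rich sequence was found at 12 of the 20 highest regions.

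The 251 regions served 307 genes, 0.793% of the 38690 genes considered. These were 196 protein-coding genes, 0.975% of that type, and 111 lncRNA genes, 0.597% of that type, of which 76 have no symbol. For comparison, regions present in both MCF10A lists and neither G12V list, called lost, served 0.478% of protein-coding and 0.264% of lncRNA genes. The G12V lists were the longer ones, with 14057 and 46698 peaks against 12902 and 34484 in the MCF10A lists. Whether list length accounts for the higher gained shares was not tested. Of the gained regions, 197 served 1 gene, 50 served 2 and 4 served 3, and 50 served genes on both strands, so that the peak cannot be assigned to a single gene there.

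Gene groups were examined as fixed lists of protein-coding genes and are given as counts beside the 0.975% above. The ligands of NKG2D had gained promoters at 2 of 8 genes, ULBP2 and RAET1E. RAET1E scored 40.45 and 60.1 in G12V replicates 1 and 2, close to the minimum in replicate 1, and an MCF10A peak lay 807 bp away. Of the other members, RAET1G, RAET1L and MICA had promoter peaks in G12V replicate 2 alone, at percentiles 76.2, 14.4 and 27.0, and MICB had one in MCF10A replicate 2 alone, at percentile 50.4. ULBP3 was accessible in both G12V lists and MCF10A replicate 2, and no list held a promoter peak at ULBP1. Within the ULBP and RAET1 cluster, from 60 kb upstream to 140 kb downstream of the ULBP2 TSS, G12V replicates 1 and 2 held 5 and 10 peaks and MCF10A replicates 1 and 2 held 0 and 6. The G12V counts include the ULBP2 and RAET1E peaks, whose presence there and absence from MCF10A the rule required. The window was placed around the highest-ranked region. The whole lists held 14057 and 46698 peaks for G12V and 12902 and 34484 for MCF10A, so the counts are a description only.

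**Figure D3:**
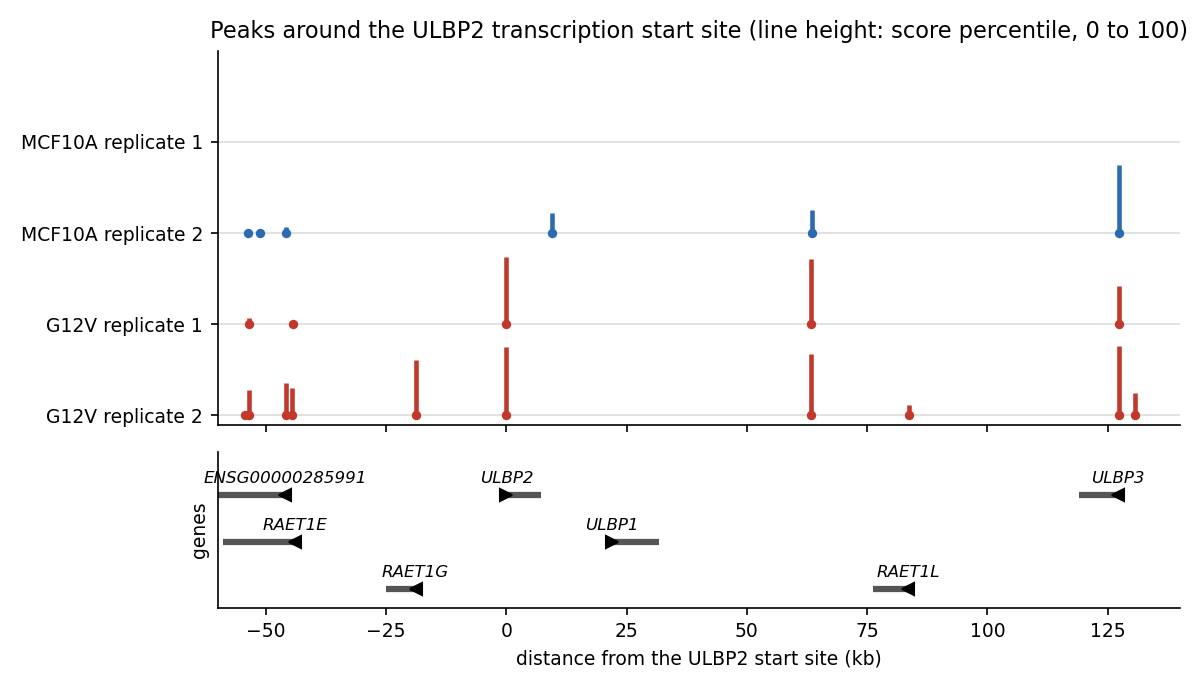
Peaks of the 4 libraries around the ULBP2 start site (horizontal axis, distance in kb), with line height giving the score percentile within the library and a dot at the base of each peak, above the protein-coding genes with arrowheads at their start sites. Peaks at 0 kb appear in both G12V rows and in neither MCF10A row, and the peak at the ULBP3 promoter near 127 kb also appears in MCF10A replicate 2.

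The lists of growth factor and RAS signalling genes were short and held small numbers of gained promoters. The gained shares were 13.3% for EGF receptors and ligands, 4% for RAS-ERK feedback genes and 3.70% for ETS factors. For AP-1 subunits the share was 0%, and for all protein-coding genes it was 0.975%. Of 15 genes of EGF receptors and their ligands, 2 were gained, EREG and NRG2. EREG, the epiregulin gene, scored 52.87 and 56.43 in G12V replicates 1 and 2 with the nearest MCF10A peak 5397 bp away. NRG2, a neuregulin gene, scored 74.81 and 177.6, but an MCF10A peak ended 21 bp from its region and MCF10A peaks were present elsewhere in its promoter window. Of 25 RAS-ERK feedback genes only DUSP7, which encodes an ERK phosphatase, had a gained region, with scores of 48.48 and 57.88 at a position of -878 bp from the TSS. Of 27 ETS factor genes only ETS2 had one, with 50.41 and 103.99. None of 21 AP-1 subunit genes did. A promoter peak in at least 1 MCF10A list was held by 14 of these 21, beside 8606 of all 20098 protein-coding genes.

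Among matrix and adhesion genes, 3 of 104 extracellular matrix genes had gained regions and none had lost ones. These were SPARC (64.01 and 52.83 in G12V replicates 1 and 2), VCAN (53.97 and 64.5) and FBN1 (55.08 and 55.31), which encode a matricellular glycoprotein, a proteoglycan and the main microfibril protein. For FBN1 and VCAN an MCF10A peak lay 665 and 646 bp away, and for SPARC 1256 bp. Among 27 integrin genes ITGAX, a leukocyte integrin subunit, was gained with 61.53 and 66.19, whereas ITGB4 was lost. No gained promoter was found for 40 regulators of the epithelial-mesenchymal transition and cadherins, 71 metalloproteinases and inhibitors, 55 keratins, 23 desmosome and hemidesmosome genes, 185 cytokines, chemokines and receptors, or 64 genes of the TGF-beta and BMP pathway.

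The Notch pathway list had 2 of 28 genes gained, the HES family genes HES4 (47.54 and 84.26 in G12V replicates 1 and 2) and HES6 (45.46 and 89.45). The HES4 region is shared with ISG15, a ubiquitin-like interferon response gene on the opposite strand, which was the only gained gene among 50 of the interferon response. HERC5, which encodes the ligase that attaches ISG15, was also gained (57.06 and 235.87) but was not on that list and is named after its values were seen. SP8 of the KLF and SP factors, TBX2 of the forkhead, SOX, GATA and T-box factors, and STK4, the MST1 kinase of the YAP and TEAD pathway, were single gained members of lists of 27, 87 and 32 genes. Of 555 zinc finger genes, 3 were gained, ZNF627, ZNF775 and ZNF836.

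Genes of protein synthesis, respiration and chromatin were also found. Of 83 cytosolic ribosomal protein genes RPL24 and RPS26 were gained, with scores of 47.31 and 68.73 and of 45.98 and 83.68 in G12V replicates 1 and 2. Of 165 mitochondrial ribosomal and respiratory chain genes MRPL38, MRPL54 and ATP5PO were gained, with G12V replicate 2 scores of 98.28, 42.02 and 109.55. Of 66 replication-dependent histone genes 3 were gained through 2 regions, H2AC15 with H2BC15, which share a bidirectional promoter, and H2AC20. The nearest MCF10A peak lay 329 bp from the shared histone region and 403 bp from the H2AC20 region. POLR2D, a subunit of RNA polymerase II, PSMB4, a proteasome subunit, DYNC1H1, the dynein heavy chain, and EIF5A, a translation factor, were likewise gained. These 4, named after their values were seen, are genes that nearly all cells use, and neither MCF10A list held a peak in their promoter windows.

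Solute carriers had 2 of 348 members gained (SLC20A2 and SLC26A6) and G protein-coupled receptors 2 of 632 (TAS1R1 and OR51D1). TAS1R1 shares its region with NOL9. None of 98 cell cycle and replication genes, 32 p53 target genes, 166 GTPases and regulators, 65 Wnt pathway genes or 39 HOX genes had a gained promoter, against the background of 0.975%. The same held for 157 other homeobox genes, 30 FGF ligands and receptors, 22 ephrins and Eph receptors, 49 semaphorin, plexin and other guidance genes, 53 clustered protocadherins, 119 cancer-testis antigen genes and 29 imprinted genes. No test was applied to any list.

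For most served genes, no other MCF10A peak was found at the gene's start sites. Of the 196 protein-coding genes, 25 had an MCF10A peak elsewhere in the same promoter window, 42 had another annotated TSS with an MCF10A peak, and 147 had neither. For the 111 lncRNA genes these numbers were 7, 5 and 103. Measured from the regions, the nearest MCF10A peak was at a median of 12113 bp, with 16 of 251 regions within 200 bp, 38 within 1000 bp and 141 with none within 10000 bp.

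The gained regions were centred close to start sites. Positions were measured from a lead gene per region, chosen as protein-coding first, then as having a symbol, then as nearest. The highest peak of 163 of the 251 regions was centred within 250 bp of the lead gene's TSS, and the median position was 40 bp upstream. By annotation of the lead gene 141 were centred upstream of the gene, 41 in a UTR exon, 27 in an exon annotated as neither coding nor UTR, 31 in an intron, 10 in a coding exon and 1 downstream of the gene. Their lengths ran from 295 to 2148 bp with a median of 700 bp, against a median of 1330 bp for regions in all 4 lists.

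CpG content, gene type and TSS coverage were compared with those of 3 other classes of promoter region: 2700 shared by all 4 lists, 120 lost, and 191 crossed, that is, present in 1 MCF10A and 1 G12V list of different replicate numbers and so carried by as many lists as the gained ones. Two-sided Fisher's exact tests were adjusted by the Benjamini-Hochberg method over 39 comparisons. The tested units are regions of the same 4 libraries, which are not biological replicates, so that the tests compare these classes and not the genotypes.

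Gained promoters were less often CpG-rich than shared and crossed ones. A region was called CpG-rich when the 500 bp around the midpoint of the merged region had at least 50% GC and a CpG observed to expected ratio of at least 0.6. This held for 137 of 251 gained regions, 54.6% (95% Wilson interval 48.4 to 60.6), which by Fisher's exact test differed from the 89.6% of shared regions (odds ratio 0.140, 95% interval 0.105 to 0.187, adjusted p = 5.40e-38) and the 75.9% of crossed regions (odds ratio 0.381, interval 0.246 to 0.588, adjusted p = 2.55e-05). Against lost regions, with 57.5% CpG-rich, no difference was detected by the exact test, with an odds ratio of 0.888 (interval 0.558 to 1.41, adjusted p = 0.825). That call rested on single libraries: the odds ratio was 2.68 without MCF10A replicate 2 (exact test, adjusted p = 5.51e-14) and 0.281 without G12V replicate 2 (exact test, adjusted p = 5.80e-25), and within replicate numbers it was 0.821 and also passed the threshold. Among regions no longer than the gained median of 700 bp, of which 68 were shared, the gained regions had an odds ratio of 0.357 and the exact test did not pass the threshold (adjusted p = 0.105). In the better-scoring 50% of each list the difference from crossed regions did not pass the exact test either (odds ratio 0.519, adjusted p = 0.0890).

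**Figure D4:**
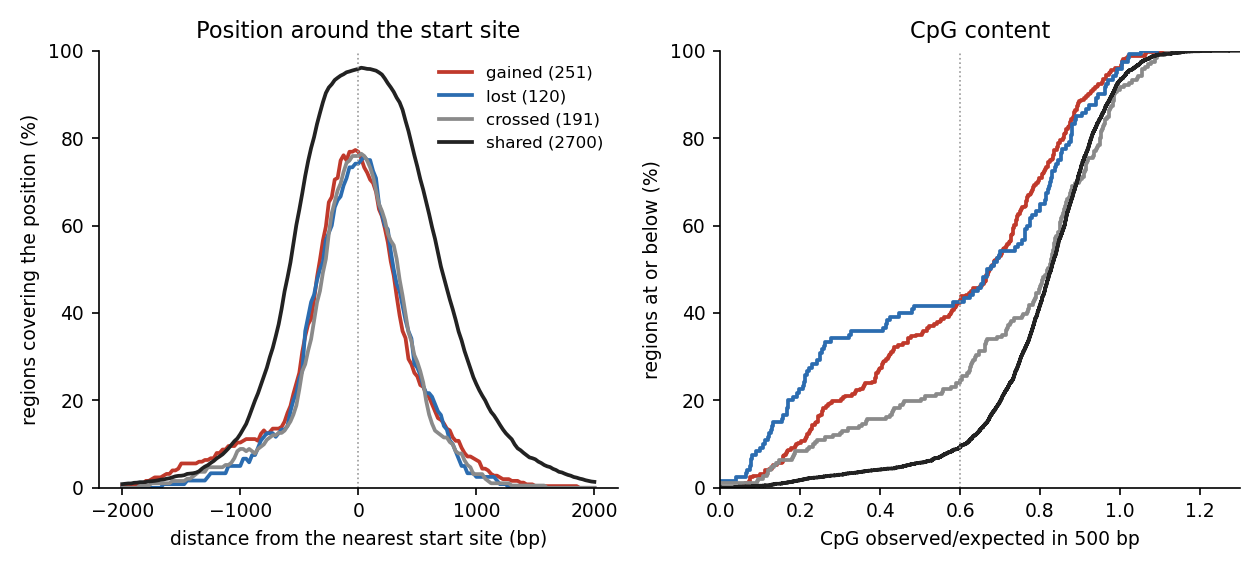
Left, share of regions covering each position around the nearest start site (percent against distance in bp). Right, cumulative share of regions by CpG observed to expected ratio in 500 bp, with the limit of 0.6 dotted. Gained, lost and crossed regions cover the start site about equally often, at 76.9%, 74.2% and 75.9%, below the 95.9% of shared regions, and gained and lost regions hold more CpG-poor sequence.

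Gained promoters less often served a protein-coding gene than shared ones, at 68.5% against 89.4% (odds ratio 0.259, interval 0.192 to 0.352, Fisher's exact test, adjusted p = 4.39e-16). The exact test did not pass the threshold against crossed regions, with 79.6% (odds ratio 0.559, interval 0.349 to 0.886, adjusted p = 0.0523), or against lost regions, with 70.0% (odds ratio 0.933, interval 0.563 to 1.53, adjusted p = 0.890). Against lost regions the odds ratio was 1.71 without MCF10A replicate 2 and 0.474 without G12V replicate 2, and both passed it. CpG content and gene type went together: 119 of 137 CpG-rich gained regions served a protein-coding gene, against 53 of 114 CpG-poor ones. Coverage of a TSS, compared by the exact test, was 76.9% in gained and 95.9% in shared regions (odds ratio 0.141, interval 0.0985 to 0.205, adjusted p = 7.60e-22), a comparison in which region length also differs, and it was not detectably different from crossed (75.9%, odds ratio 1.06, interval 0.660 to 1.68, adjusted p = 0.890) or lost regions (74.2%, odds ratio 1.16, interval 0.674 to 1.97, adjusted p = 0.812). Against lost regions, leaving out any of the 4 libraries gave odds ratios from 0.204 (without G12V replicate 2) through 0.551 (without G12V replicate 1) and 2.82 (without MCF10A replicate 1) to 8.68 (without MCF10A replicate 2), and all 4 passed the threshold.

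Of 10 motifs searched on both strands in the 150 bp around the peak centre, 2 differed between gained and shared promoters, the AP-1 motif TGANTCA and the SP and KLF motif GGGCGG. The AP-1 motif was present in 25 of 251 gained regions, 9.96%, against 3.04% of shared regions (odds ratio 3.53, interval 2.12 to 5.71, adjusted p = 1.55e-05) by Fisher's exact test, and 5.24% of all promoter regions. It was held by 19 of the 114 CpG-poor and 6 of the 137 CpG-rich gained regions. Within 5 strata of GC content the odds ratio was 2.27 and passed the threshold in the Cochran-Mantel-Haenszel test. It did not pass in the whole region in place of 150 bp (odds ratio 1.25, exact test, adjusted p = 0.230), in the better-scoring 50% of each list (2.13, adjusted p = 0.152) or among regions of up to 700 bp (2.24, adjusted p = 0.938). The SP and KLF motif was present in 35.5% of gained, 50.9% of shared and 43.2% of all promoter regions (odds ratio 0.530 against shared regions, exact test, adjusted p = 2.55e-05). Within GC strata its odds ratio was 0.769 and did not pass the threshold.

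No motif passed the threshold against crossed or lost regions. The AP-1 motif was present in 4.71% of crossed regions (odds ratio 2.24, exact test, unadjusted p = 0.0473, adjusted p = 0.176) and in 10.8% of lost regions (odds ratio 0.910, adjusted p = 0.901). At unadjusted p under 0.05 there were 2 motifs against crossed regions, AP-1 and the SP and KLF motif, and 2 against lost regions, NFY and p53. The ETS motif CCGGAAG was present in 6.37% of gained, 8.48% of shared and 7.22% of all promoter regions, in 15 CpG-rich and 1 CpG-poor gained regions, and its share did not differ detectably from shared regions (odds ratio 0.735, interval 0.406 to 1.25, exact test, adjusted p = 0.525). The TEAD motif GGAATG was present in 7.57% of gained and 5.97% of all promoter regions, the NFY motif CCAATC in 10.8% and 8.84%, the CRE motif TGACGTCA in 0.797% and 1.14%, the NRF1 motif GCATGCGC in 1.59% and 2.09%, and the TATA box TATAAA in 1.99% and 2.31%. The CTCF motif was present in 7.57% and 9.39%, and the p53 motif in 0.797% and 0.521%.

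**Figure D5:**
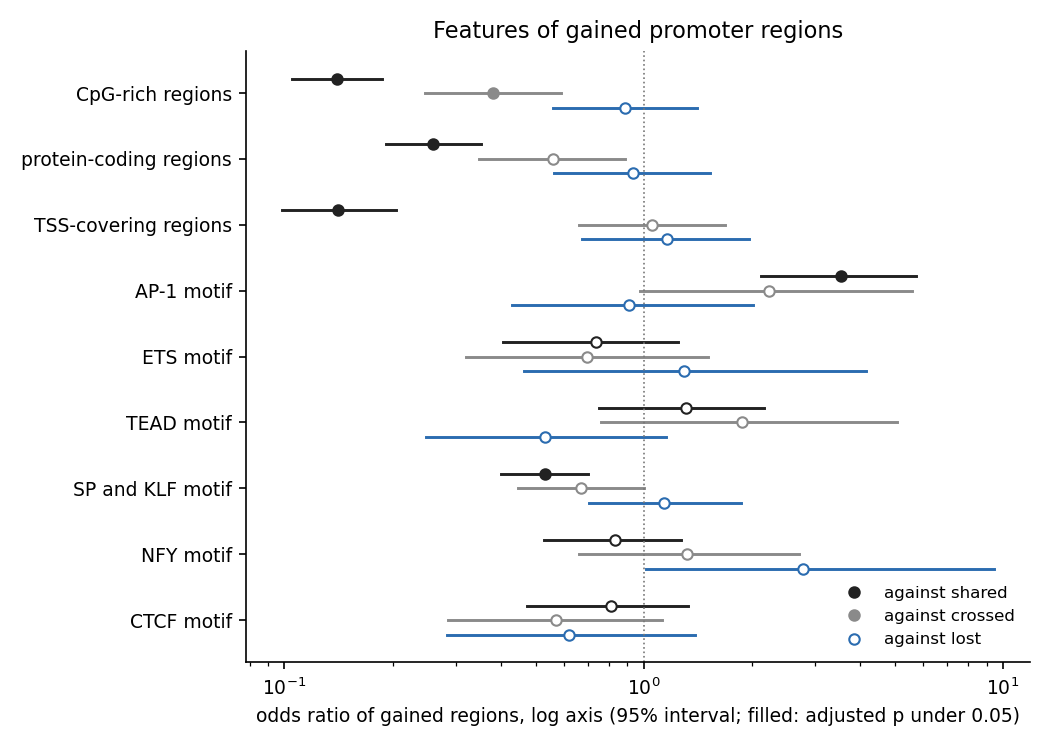
Odds ratios of gained promoter regions against shared (black), crossed (grey) and lost (blue) regions on a log axis for 3 region features and 6 of the 10 motifs, with 95% intervals and filled points where the adjusted p is under 0.05. Against shared regions CpG-rich, protein-coding and TSS-covering regions and the SP and KLF motif lie below 1 and the AP-1 motif above it, while no point is filled against lost regions.

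AP-1 matches in gained promoters lay at varied positions. The stretches below show 4 of them, picked after their values were seen for their positions near or upstream of the start site, in hg19, 5′ to 3′ on the strand of the gene, with the match in capitals.
ULBP2 (chr6:150263137-150263165, plus strand): aaaccttgaggTGATTCAtcttccaggct
LAMTOR3 (chr4:100815566-100815594, minus strand): agacgaggtcaTGAATCAtgtgacggtgg
RLF (chr1:40627015-40627043, plus strand): agggccagggcTGAGTCAcgtggcttggt
RPL24 (chr3:101405781-101405809, minus strand): cagagacagaaTGACTCAtaaaccaactg

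The middle base was T in the ULBP2 match and A in the LAMTOR3 match, so neither is the usual site. The ULBP2 match was centred 1 bp downstream of the TSS of the highest-ranking gained region. At LAMTOR3, a scaffold gene of MAP kinase and mTORC1 signalling with scores of 60.13 and 151.64 in G12V replicates 1 and 2, the match lay 5 bp downstream. At RLF, a zinc finger gene with 73.33 and 46.97, the match lay at -30 bp, and at RPL24 at -218 bp.

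The gained promoters were spread over all chromosomes examined. Chromosome 17 held 20, which is 4.04% of its 495 promoter regions, and chromosome 21 held 4 of 97, 4.12%, against 2.22% over all. Chromosome 20 held 1 of 260, 0.385%. Another gained region of any kind lay within 100000 bp of 63 of the 251 gained promoters, 25.1%, against 18.1% of shared, 18.3% of crossed and 14.2% of lost promoters, a description from the same contrast. TLR4, MIR31HG, LYST and DAW1 were among the promoters with 2 such neighbours, the highest number found for a gained promoter.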

How the data were processed

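ATAC-seq peak lists of 2 MCF10A and 2 G12V libraries were analysed as deposited. Per the study's methods, the authors used Bowtie 0.12.9 for alignment, retained uniquely mapped reads and called peaks by MACS 1.4.2 (tag size 51, shift size 75, local window 25000, p threshold 0.0001), which fixes the shift in place of estimating it. Read starts had been moved to the centre of the transposase insertion before peak calling. The deposited lists give hg19 peaks per replicate with a MACS score and no counts, so depth is unknown and no counting error can be given. Samples were grouped by the genotype label, and separate biological replicates are stated by the study.

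Peaks on chromosomes 1 to 22 and X were merged where they overlapped by at least 1 bp. Promoters were taken from GENCODE release 44 lifted to GRCh37 (20098 protein-coding and 18592 lncRNA genes). Sequence came from GRCh37. CpG content was read in the 500 bp around the midpoint of the merged region. Motifs were searched in the 150 bp around the centre of the highest-percentile peak, with up to 3 mismatches for p53 and 1 for CTCF. Two-sided Fisher's exact tests were adjusted by Benjamini-Hochberg over 39 comparisons, with the Cochran-Mantel-Haenszel test for strata (Python 3.11.15, scipy 1.17.1, statsmodels 0.14.6, pysam 0.24.0). Merging and tests were checked on simulated data, where an odds ratio of 4 was recovered at adjusted p under 0.05 in 100% of simulated features against shared and crossed regions and 99.6% against lost regions. Features without a difference passed in 3.5%, 2.75% and 0.75% against shared, crossed and lost regions. All features were simulated at a base share above that of every motif except SP and KLF, so the recovery does not apply to the rarer motifs.

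Named genes were those at the 20 gained regions with the highest lower-of-2 percentile, those of 41 gene lists, and those nearest the rule's boundary. Some of these genes, 1 gene list and some of the sequences read are not reported here. The members and lists were chosen with earlier results of these data known. Alternatives were score limits, equal list sizes, overlap and merging distances, TSS sets, promoter windows, left-out libraries, GC strata and the replicate block. The CpG window at the TSS and the length limit were added after the data were seen.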

Additional observations from a re-analysis of the deposited data

How the results depend on the processing

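The number of gained promoter regions stayed within 1.5 times of 251 under every alternative except the replicate block and leaving out a library. Leaving out a library gave 284 to 2061 (without MCF10A replicate 1 the number was 284 and without MCF10A replicate 2 it was 1636, while dropping G12V replicate 1 gave 2061 and dropping G12V replicate 2 gave 439). Under the replicate block, which compares the lists within each replicate number, the counts were 1829 and 2210 for replicates 1 and 2, so no paired value stands close to the number reported. The numbers are shared by label only. Fewer of the regions themselves remained: of the 251, 62 were still gained in the better-scoring 50% of each list and 60 with equal list sizes of 12888 peaks, against 244 with the stricter overlap, 231 and 208 with peaks merged within 200 and 1000 bp, and 216 with the narrower promoter window. In all 12 settings that redraw the regions, one of which keeps protein-coding genes only, 16 regions remained, among them ULBP2, TBX2, NANOS1, TLR4, LGALSL, SIKE1 and POC1A. Some settings had a fixed outcome: leaving out either MCF10A list kept all 251. The better-scoring 50% kept the 62 regions above percentile 50 of both G12V lists. Remaining in all settings thus partly restates the scores by which these genes ranked highest.

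The odds ratios against shared regions kept their direction in every alternative run, at 0.127 to 0.428 for CpG-rich, 0.289 to 0.568 for protein-coding and 0.0684 to 0.364 for TSS-covering regions with a library left out, and at 0.275, 0.432 and 0.203 under the replicate block. The CpG difference no longer passed the threshold among regions of up to 700 bp (0.357), nor against crossed regions in the better-scoring 50% (0.519). The protein-coding difference from crossed regions passed it with peaks merged within 200 bp (0.506) or 1000 bp (0.394), with starts of all transcripts (0.479) and with a promoter window of 250 bp each way (0.460). Crossed regions are defined by all 4 libraries, so no value against them exists with a library left out or blocked.

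Against lost regions the direction depended on the libraries. With a library left out the odds ratio ran from 0.281 to 2.68 for CpG-rich (reversed at 2.68 without MCF10A replicate 2), from 0.474 to 1.71 for protein-coding (reversed at 1.71 without MCF10A replicate 2) and from 0.204 to 8.68 for TSS-covering regions (reversed at 0.551 without G12V replicate 1 and at 0.204 without G12V replicate 2), and under the replicate block it was 0.821, 0.890 and 1.34, of which the first and last passed the threshold, as did each reversed value. Motif counts past the threshold against shared regions, 2 as reported, were 1 in the better-scoring 50% and within GC strata, 6 in the whole region and under the replicate block, and 2 to 6 with a library left out. Against crossed regions they were 1 with equal list sizes or all transcript starts and 3 in the whole region, in place of 0. Against lost regions they were 1 with equal list sizes, all transcript starts or the whole region, 3 under the replicate block and 1 to 4 with a library left out, in place of 0. The AP-1 odds ratio against shared regions did not pass in the better-scoring 50% (2.13), in the whole region (1.25) or among regions of up to 700 bp (2.24), and against lost regions it ran from 0.922 to 1.83 with a library left out, reversed at 1.83 without G12V replicate 2. The SP and KLF odds ratio against lost regions reversed to 0.615 with equal list sizes, 0.607 without G12V replicate 2 and 0.891 under the replicate block. The causes were not tested. Presence in a list depends on its depth, which is unknown, so a promoter absent from both MCF10A lists may have been accessible below the threshold.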
